A study of Mus musculus with 24 samples.

Results

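m6A peak lists of blastocysts were compared with those of 2-cell embryos, both from C57BL/6N mice. Each stage had 2 immunoprecipitated libraries, so 4 of the 12 peak lists, and of 24 samples in all, entered the comparison. The stages not compared were GV and MII oocytes, zygotes and 8-cell embryos. A protein-coding gene was called marked in a library when a peak shared at least 1 bp with its body. It was called blastocyst-specific when marked in both blastocyst libraries and neither 2-cell library, and 2-cell-specific in the reverse case. By this rule 1214 genes were blastocyst-specific and 629 were 2-cell-specific, of 7579 marked in any of the 4 libraries. Both libraries of both stages came from pools of 100 embryos, with the zona pellucida removed in acid. Blastocysts were collected 92 to 94 h after hCG, and 2-cell embryos 39 to 43 h after it. The parents of both stages were 8-week-old females, superovulated, and males of the same age. The design text calls the libraries of a stage biological replicates. In both stages RNA was cleared of ribosomal RNA and DNA, sonicated and precipitated with an antibody against m6A. A blastocyst pool mixes trophectoderm with inner cell mass, and fewer cells of a type cannot be told apart from less RNA per cell. A gene without a peak may carry no m6A, may be too weakly expressed or may lie below detection at a depth that the lists do not give.

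m6A is a methylated adenosine that the METTL3-METTL14 writer complex places on messenger RNA, mostly near stop codons and in the last exon. YTH-domain proteins read it and affect the decay, export or translation of the RNA. In the mouse 2-cell embryo the zygotic genome is switched on in its major wave while maternal RNA is being cleared. By the blastocyst the outer trophectoderm, which pumps fluid into the blastocoel, has separated from the inner cell mass, which forms epiblast and primitive endoderm.

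4 sequences show peaks that ran past the start of a stage-specific gene: Cldn4, a claudin of tight junctions, and Hk2, hexokinase 2, in blastocysts, and Fam222a and Tdpoz4 in 2-cell embryos. They were chosen after their values were seen. Each is the 250 bases before the RefSeq start, read 5′ to 3′ on the strand of the gene in GRCm38.p6, and lies outside every annotated gene. Capitals mark the bases inside a peak in both libraries of the stage. The windows lie at chr5:134946935-134947184 (minus strand), chr6:82774455-82774704 (minus), chr5:114568001-114568250 (plus) and chr3:93796148-93796397 (plus).
Cldn4: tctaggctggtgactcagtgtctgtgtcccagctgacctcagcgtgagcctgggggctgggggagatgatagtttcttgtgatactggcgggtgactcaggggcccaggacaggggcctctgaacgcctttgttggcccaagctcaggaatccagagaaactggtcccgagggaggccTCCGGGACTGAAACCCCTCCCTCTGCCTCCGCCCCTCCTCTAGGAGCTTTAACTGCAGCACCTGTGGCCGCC
Hk2: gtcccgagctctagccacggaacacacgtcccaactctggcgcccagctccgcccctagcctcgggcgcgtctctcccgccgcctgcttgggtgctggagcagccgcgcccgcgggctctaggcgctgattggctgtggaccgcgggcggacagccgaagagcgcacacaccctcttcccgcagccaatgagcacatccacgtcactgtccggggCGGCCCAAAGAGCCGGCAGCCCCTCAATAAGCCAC
Fam222a: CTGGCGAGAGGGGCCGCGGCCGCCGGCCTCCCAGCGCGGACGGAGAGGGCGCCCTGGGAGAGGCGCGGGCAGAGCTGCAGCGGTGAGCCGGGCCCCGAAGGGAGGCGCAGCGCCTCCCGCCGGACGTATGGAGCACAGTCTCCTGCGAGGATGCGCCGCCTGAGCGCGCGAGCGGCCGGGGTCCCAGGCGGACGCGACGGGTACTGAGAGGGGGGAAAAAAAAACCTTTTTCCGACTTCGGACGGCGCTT
Tdpoz4: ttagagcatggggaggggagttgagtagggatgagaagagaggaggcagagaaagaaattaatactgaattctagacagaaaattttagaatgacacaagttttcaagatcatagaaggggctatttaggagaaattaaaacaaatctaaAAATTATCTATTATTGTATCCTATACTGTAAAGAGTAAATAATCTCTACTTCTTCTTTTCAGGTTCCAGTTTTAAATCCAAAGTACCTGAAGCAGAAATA
The capitals cover 72 bases before Cldn4, 35 before Hk2, 250 before Fam222a and 100 before Tdpoz4. The 4 letters GGAC, a common m6A core, occur on the gene's strand 2 times in the window of Cldn4, 2 times in that of Hk2, 4 times in that of Fam222a and not in that of Tdpoz4. Inside the capitals the counts are 1 for Cldn4, 0 for Hk2 and 4 for Fam222a. Of all 32851 RefSeq windows of this length, 58.0% hold GGAC on the gene's strand and 82.3% hold it on either strand (GGAC or GTCC). Windows with a peak numbered 547 over the 4 libraries. Of these, 39 were blastocyst-specific (7.13%) and 62 were 2-cell-specific (11.3%). Peaks in the lists carry no strand.

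The 4 lists held 9131 and 7943 peaks in the blastocyst libraries and 9161 and 9552 in the 2-cell libraries. Marked protein-coding genes numbered 5204 and 4549 in blastocysts, against 3692 and 4020 in 2-cell embryos. Thus blastocyst lists named more genes with fewer peaks. With 2 libraries a stage the smallest two-sided p of an exact permutation test is 0.33, so that test cannot call any measure significant. Therefore the stage split was set beside the 4 crossed splits, which pair a blastocyst library with a 2-cell library. The blastocyst-specific genes made up 16.0% of the marked genes and the 2-cell-specific genes 8.30%. Crossed pairs gave 117, 213, 61 and 91 genes, that is 1.54%, 2.81%, 0.805% and 1.20%. A further 1775 genes were marked in all 4 libraries (23.4%). By bases covered, the Jaccard index, the shared bases over the bases in either list, was 0.137 to 0.217 between a blastocyst and a 2-cell library. Between replicates it was 0.368 for blastocysts and 0.438 for 2-cell embryos.

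**Figure D1:**
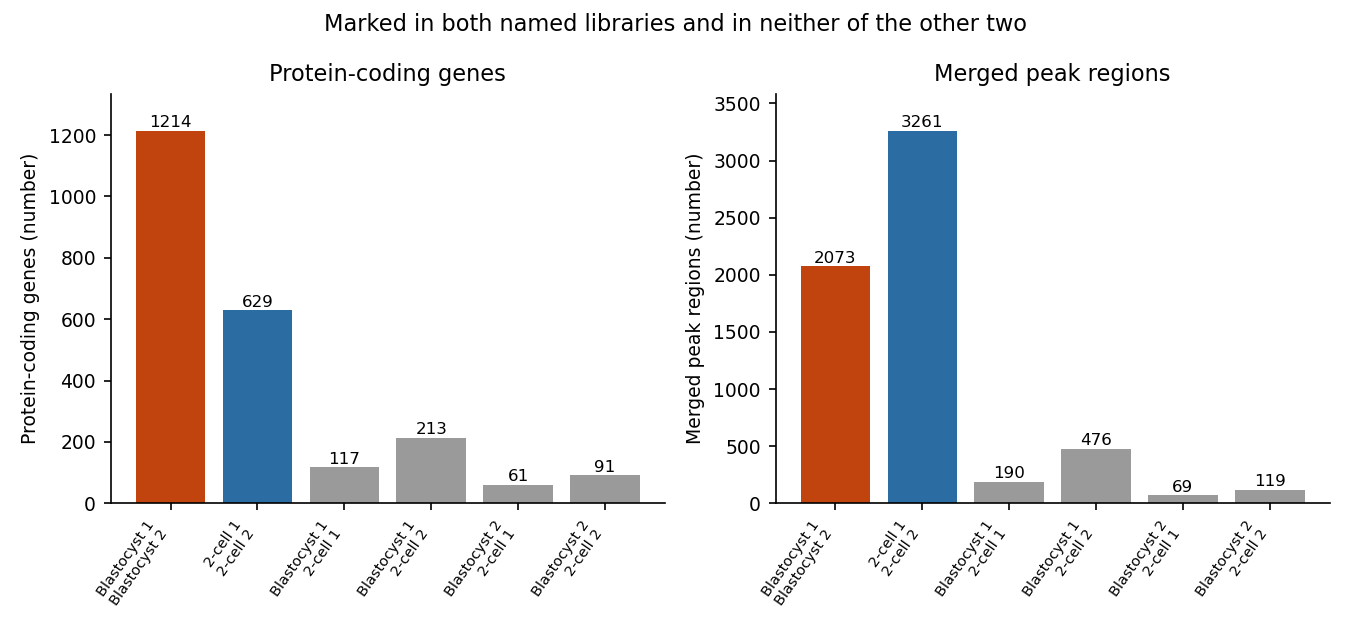
Bars give the number of protein-coding genes (left) and of merged peak regions (right) marked in both libraries named under the bar and in neither of the remaining libraries; orange is the blastocyst pair, blue the 2-cell pair and grey the crossed pairs. The highest crossed pair reaches 213 genes and 476 regions, below both stage pairs.

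Among the blastocyst-specific genes the best-ranked peaks lay in regulators of the first lineages. Peaks are ranked by the authors' q value within a library and given as a percentile, where 100 is the best peak of that library; fold is the authors' enrichment at the peak and, like the percentile, describes a peak within its own list. Gata3, a trophectoderm transcription factor, had best peaks of 15.2-fold and 12.9-fold, both at percentile 99.9, in the blastocyst libraries and no peak in either 2-cell library. The first of these lies at chr2:9857844-9858821 (mm10), 1254 bp from the 3′ end of the gene. Eomes, a T-box factor of trophectoderm, had folds of 14.6 and 8.44 at percentiles 99.9 and 98.4. Tet2, a dioxygenase that oxidises 5-methylcytosine, held 6 and 4 peaks in the blastocyst libraries, the best at percentiles 99.9 and 99.5. None of these genes had a peak in 2-cell embryos. The 12 highest of the class also included H2ax, the histone variant of the DNA damage response, and B3gnt5, a glycosyltransferase of lactosylceramide chains. Dppa1, Akr1b8, Tdrp, Erf, Tardbp and Id2 were among them too. The best peaks of these genes lay between percentiles 98.4 and 99.9 in both blastocyst libraries.

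Trophectoderm genes had the highest blastocyst-specific share of the 22 gene lists. Of 19 marked members 12 were blastocyst-specific (63.2%, against 16.0% of all marked genes), none was 2-cell-specific and 2 were marked in all 4 libraries. The 12 were Cdx2, Dab2, Dppa1, Elf3, Eomes, Gata2, Gata3, Id2, Lrp2, Slc2a3, Tfap2a and Wnt7b. Cdx2, the homeobox factor that defines trophectoderm, was named outside the rule for its role. Its best peaks lay at percentiles 94.5 and 96.0 in the blastocyst libraries, and none was listed in 2-cell embryos. Id2, an inhibitor of basic helix-loop-helix factors, had folds of 4.28 and 4.03 at percentiles 99.1 and 98.5, with its peaks 645 and 590 bp from the 3′ end. Tfap2c and Tead4, which act upstream of Cdx2 in the mouse embryo, were the 2 marked in all 4 libraries. Cited2, Fgfr2 and Hand1 were each marked in 1 of the 2-cell libraries. Tfap2c peaks stood at percentiles 99.5 and 98.8 in blastocysts and 91.9 and 98.4 in 2-cell embryos. Tead4 peaks stood at percentiles 92.1 and 91.7 in blastocysts and 41.8 and 72.1 in 2-cell embryos. The keratin genes Krt8 and Krt18, which trophectoderm also uses, had no peak in any of the 4 libraries.

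Primitive endoderm genes followed with 7 blastocyst-specific of 14 marked members (50.0%, against 16.0% of all marked genes). None was 2-cell-specific and 1 was marked in all 4. The 7 were Dab2, Fgfr1, Gata6, Lama1, Pdgfra, Pdgfrb and Runx1. Gata6, the GATA factor that specifies this lineage, held 4 and 3 peaks in the blastocyst libraries, at best percentiles of 95.9 and 87.2. Pdgfra, its receptor tyrosine kinase marker, had folds of 12.0 and 16.2. Lama1, a laminin chain of the basement membrane, ranked unevenly, at percentile 65.5 in one blastocyst library and 99.3 in the other. Hhex was marked in all 4 libraries, at percentiles 87.1 and 87.8 in blastocysts and 95.3 and 80.8 in 2-cell embryos. Gata4 did not follow the list: it was marked in 1 blastocyst library and both 2-cell libraries.

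Of 15 marked pluripotency genes 3 were blastocyst-specific, a share near the 16.0% of all marked genes, and none was 2-cell-specific. Another 7 were marked in all 4 libraries (46.7%, against 23.4% of all marked genes), and 5 fell in none of these classes. Sox2, Nanog and Il6st, the last a subunit of the LIF receptor, were the blastocyst-specific ones (20.0%). Sox2 had folds of 13.0 and 23.9 at percentiles 96.3 and 98.7. Nanog had folds of 3.41 and 6.58 at percentiles 86.8 and 93.0. Sox2 lies within the long non-coding gene Sox2ot, and peaks without strand cannot be assigned between them. Fgf4, Klf2, Klf4, Klf5, Sall4, Tbx3 and Zfp42 were marked in all 4 libraries. For Klf2, a factor of naive pluripotency, the percentiles were 98.7 and 95.9 in blastocysts and 93.2 and 98.0 in 2-cell embryos, so the ranges overlapped. Pou5f1 (OCT4) had a peak in neither blastocyst library and in 1 of the 2-cell libraries.

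Genes that build the epithelium and its fluid-filled cavity were likewise marked in blastocysts. Of 28 marked junction and polarity genes 12 were blastocyst-specific (42.9%, against 16.0% of all marked genes). None was 2-cell-specific and 5 were marked in all 4 libraries. Cldn4 had folds of 5.99 and 10.2 at percentiles 98.3 and 99.0, on a gene of 1812 bp. Cdh1 (E-cadherin) had folds of 3.64 and 3.46, and Dsp (desmoplakin) of 7.69 and 9.49. F11r (JAM-A) was marked in all 4, at percentiles 99.9 and 99.7 in blastocysts and 97.8 and 98.8 in 2-cell embryos. Its best peak lay 942 or 943 bp from the 3′ end in each of these libraries. Ion and water transport genes gave 4 blastocyst-specific of 8 marked members (50.0%) and none 2-cell-specific. Among them were Atp1b1, the beta subunit of the sodium pump that drives blastocoel filling, and the transporters Slc12a7 and Clcn3. The Atp1b1 paralogue Atp1b3 was marked in all 4, at percentiles 54.2 and 83.7 in blastocysts and 94.2 and 94.1 in 2-cell embryos.

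Of the signalling lists, Hippo genes stood further from the shares over all marked genes (16.0% and 8.30%) than FGF and ERK genes. Hippo genes, which link cell position to Cdx2, gave 6 blastocyst-specific of 20 marked members (30.0%) and none 2-cell-specific. Among them were Amotl2, Tead1 and the kinases Stk3 and Stk4, whereas the coactivator Yap1 was marked in all 4. The best peaks of Tead1, Stk3 and Stk4 lay at different places in the 2 blastocyst libraries. Their percentiles were 53.3 and 57.8 for Tead1, 36.8 and 54.6 for Stk3, and 29.4 and 65.2 for Stk4. FGF and ERK feedback genes gave 5 blastocyst-specific of 25 (20.0%) and 1 2-cell-specific (4.00%), near those shares. Dusp4 and Dusp6, phosphatases that switch ERK off, were blastocyst-specific, with folds of 9.85 and 11.6 for Dusp4 and 8.62 and 12.5 for Dusp6. The best Dusp6 peaks lay at different places in the 2 blastocyst libraries. Spry2, a feedback inhibitor of receptor kinases, was marked in all 4, with its best peak within 22 to 58 bp of the 5′ end of the gene in every library.

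Both metabolic lists held a blastocyst-specific share above the 16.0% of all marked genes, and their 2-cell-specific shares lay on either side of 8.30%. Of 9 marked glycolysis genes 4 were blastocyst-specific (44.4%) and 1 was 2-cell-specific (11.1%). Hk2 had folds of 5.67 and 9.44, with both best peaks 82 to 88 bp from the 5′ end, beside the sequence printed above. Slc2a3 (GLUT3), Slc16a1 (MCT1) and Gpi1 were the others. Sterol and fatty acid genes gave 6 blastocyst-specific of 20 (30.0%) and 1 2-cell-specific (5.00%). Fasn, fatty acid synthase, had folds of 14.1 and 3.96 in blastocysts and no 2-cell peak. Elovl6 was marked in all 4 libraries.

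The list of 2-cell and genome activation genes ran the other way. Of 26 marked members 11 were 2-cell-specific (42.3%), 1 was blastocyst-specific (3.85%) and 10 were marked in all 4 (38.5%). The shares over all marked genes were 8.30%, 16.0% and 23.4%, in that order. The 11 were Klf17, Nelfa, Obox3, Obox5, Sp110, Spz1, Tdpoz4, Usp17lc, Zfp352, Zscan4b and Zscan4d. Zscan4b, of the zinc finger cluster that protects telomeres in mouse cells, had no peak in blastocysts and folds of 13.5 and 10.1 in 2-cell embryos. Obox5, an oocyte and early embryo homeobox gene, had no peak in blastocysts and folds of 7.69 and 3.30 in 2-cell embryos. Obox5 was also marked in all 6 oocyte and zygote libraries, whereas Zscan4b was marked in none of them. Nr5a2, an orphan nuclear receptor of genome activation, was marked in all 4, at percentiles 99.5 and 99.3 in blastocysts and 98.0 and 99.3 in 2-cell embryos. Zscan4, Obox, Tdpoz, Trim43 and Usp17l genes belong to families of near-identical copies, among which the authors' mapping could split or share reads.

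Maternal-effect genes had fewer blastocyst-specific than 2-cell-specific members. Of 14 marked maternal-effect genes 1 was blastocyst-specific (7.14%), 4 were 2-cell-specific (28.6%) and 6 were marked in all 4 (42.9%). The shares over all marked genes were 16.0%, 8.30% and 23.4%, in that order. Nlrp5 (MATER), of the subcortical maternal complex, had no peak in blastocysts and folds of 15.7 and 8.91 in 2-cell embryos. Dnmt1, the maintenance DNA methyltransferase, had no peak in blastocysts and folds of 10.9 and 18.4 in 2-cell embryos. These best Dnmt1 peaks lay at different places, 25071 and 21980 bp from the 3′ end. Npm2, a histone chaperone of the oocyte nucleus, had folds of 9.27 and 6.66 in 2-cell embryos. Khdc3 (FILIA), a partner of Nlrp5, was the exception, with folds of 4.68 and 4.17 in blastocysts and no 2-cell peak. Oocyte-specific genes gave 3 2-cell-specific of 13 marked (23.1%) and none blastocyst-specific. Replicates diverged in this list, with 3 and 1 marked members in the blastocyst libraries and 11 and 4 in the 2-cell libraries. Of cumulus and granulosa cell genes 1 was marked in 1 blastocyst library and none in 2-cell libraries.

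**Figure D2:**
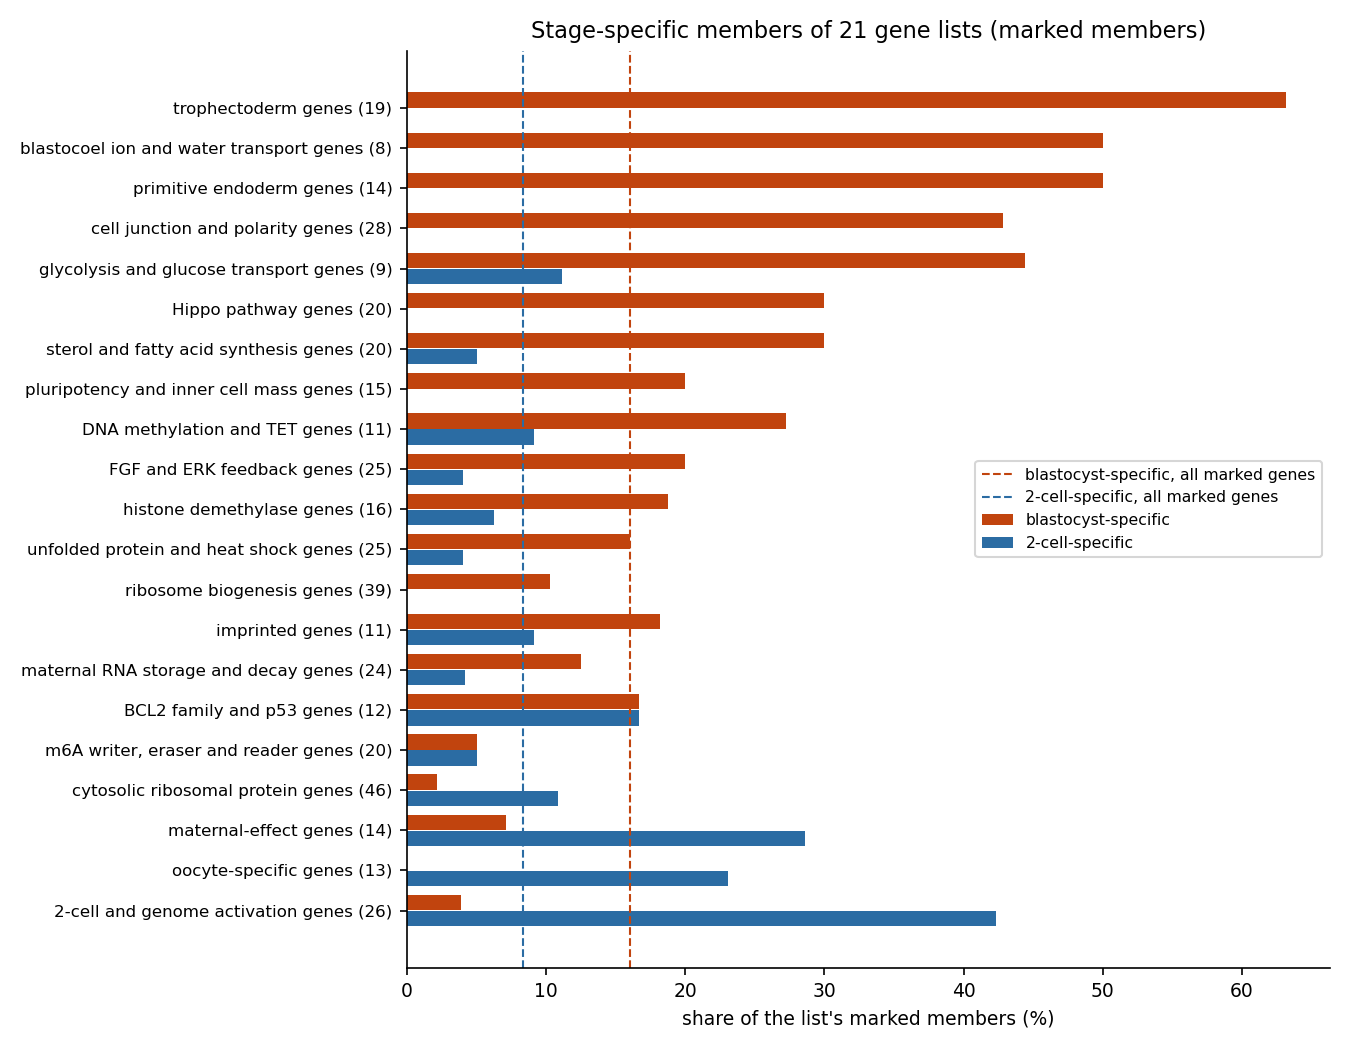
Horizontal bars give the share of each list's marked members (number in brackets) that was blastocyst-specific (orange) or 2-cell-specific (blue); dashed lines are the same shares over all 7579 marked genes, 16.0% and 8.30%. The trophectoderm list reaches 63.2% in orange and the 2-cell list 42.3% in blue; the cumulus list, with 1 marked member, is not drawn.

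Genes of the m6A system itself were marked at both stages. Of 20 marked members 10 were marked in all 4 libraries (50.0%), 1 was blastocyst-specific (Igf2bp3) and 1 was 2-cell-specific (Ythdc2), each 5.00%. The shares over all marked genes were 23.4%, 16.0% and 8.30%, in that order. Igf2bp3 peaks also touch the neighbouring gene Malsu1. Ythdf2, a reader that promotes decay, had its best peaks at percentiles 98.5 and 96.1 in blastocysts and 99.0 and 99.7 in 2-cell embryos. Wtap, a regulatory subunit of the writer, had its best peak 7951 and 8011 bp from the 3′ end in blastocysts and 1045 and 1049 bp from it in 2-cell embryos. It held 5 and 4 peaks in blastocysts and 2 and 2 in 2-cell embryos, and the stages shared marked bases. Mettl3 and Mettl14 had no peak in any of the 4. Ribosome biogenesis genes were marked in all 4 libraries for 17 of 39 marked members (43.6%), with 4 blastocyst-specific (10.3%) and none 2-cell-specific. Ribosomal protein genes gave 1 blastocyst-specific (2.17%) and 5 2-cell-specific of 46 (10.9%, near the 8.30% of all marked genes). Another 5 were marked in all 4 (10.9%). The 2-cell replicates disagreed, with 16 and 10 members marked in blastocysts and 15 and 43 in 2-cell embryos.

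In the other lists 1 to 4 members fell in either class. Over all marked genes 16.0% were blastocyst-specific and 8.30% were 2-cell-specific. The blastocyst-specific shares of the heat shock, histone demethylase, imprinted and cell death lists lay near that 16.0%. Heat shock and unfolded protein genes gave 4 blastocyst-specific of 25 (16.0%), among them Dnaja1 and Hsph1, and 1 2-cell-specific, Hspa1a, an inducible HSP70 gene with a near-identical copy. Of 16 histone demethylase genes 3 were blastocyst-specific (18.8%), namely Kdm6a, Kdm2a and Kdm1a, and 1 was 2-cell-specific, Kdm4c. Kdm4c had 1 peak in each 2-cell library, at percentiles 5.7 and 5.3, and these shared no base. Kdm1a peaks also touch the gene Luzp1. Of 11 DNA methylation genes 27.3% were blastocyst-specific, Tet2 and Mbd3 among them, and Dnmt1 was 2-cell-specific (9.09%). Of 11 imprinted genes Peg3 and Peg10 were blastocyst-specific (18.2%) and Usp29, which lies beside Peg3, was 2-cell-specific (9.09%). Peg3 had 1 peak in each blastocyst library, at percentiles 35.9 and 49.5, and these shared no base. Bbc3 (PUMA) and Bid, which promote cell death, were 2-cell-specific, and Ccng1 and Trp53inp1, targets of p53, blastocyst-specific, of 12 marked members (16.7% each). Of 24 RNA storage and decay genes Pan3, Dcp2 and Dcp1a were blastocyst-specific (12.5%) and Tob2 2-cell-specific (4.17%). The best peaks of Kdm6a, Peg10, Dcp2 and Tob2 also lay at different places in the libraries of their stage.

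Several of the best-ranked 2-cell-specific genes held their peak far from the gene's end. Slco3a1, an organic anion transporter, had no peak in blastocysts and folds of 17.3 and 14.4 in 2-cell embryos, both at percentile 99.7. Nell1, a secreted protein gene of 887940 bp, carried its best 2-cell peak 536764 bp from the 3′ end in both libraries. Ppp1cb, a catalytic subunit of protein phosphatase 1, had folds of 64.2 and 46.8, at 22149 and 22190 bp from the 3′ end. Pld5 had folds of 43.1 and 21.8, at 16329 and 16290 bp from it. Usp17lb, a deubiquitinase gene of 2327 bp, differed, with 3 and 4 peaks and its best ones 229 and 59 bp from the 3′ end. Nexn, Rnf10, Usp29, Pign, Btbd18, C2cd5 and Rph3a completed the 12. Of these 12 genes Slco3a1, Nell1, Ppp1cb, Nexn, Rnf10, Usp29, C2cd5 and Rph3a were marked in all 6 oocyte and zygote libraries.

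Position along the gene differed between the 2 classes as a whole. Genes over 10000 bp with a known strand were used, and a peak counted as near the 3′ end when its midpoint lay within 2000 bp of it. In blastocyst-specific genes 37.3% and 34.8% of peaks were near the 3′ end, where an even spread would give 6.22% and 6.13%. In 2-cell-specific genes 9.50% and 10.2% were, where an even spread would give 4.24% and 4.32%. Genes marked in all 4 libraries gave 22.8% and 21.4% in blastocysts and 21.6% and 20.6% in 2-cell embryos, so in shared genes the stages lay close together. Counted by gene, 481 of 972 blastocyst-specific genes (49.5%) had a peak near the 3′ end in both libraries, against 117 of 497 2-cell-specific genes (23.5%). The classes differed in length too, with medians of 27828 bp for blastocyst-specific and 43423 bp for 2-cell-specific genes. The part of length in the position of the peaks was not tested. Over all peaks in such genes the near-3′ share averaged 29.6% ± 2.86 in blastocysts and 21.1% ± 1.92 in 2-cell embryos (SD, n = 2 each), and the libraries did not overlap.

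**Figure D3:**
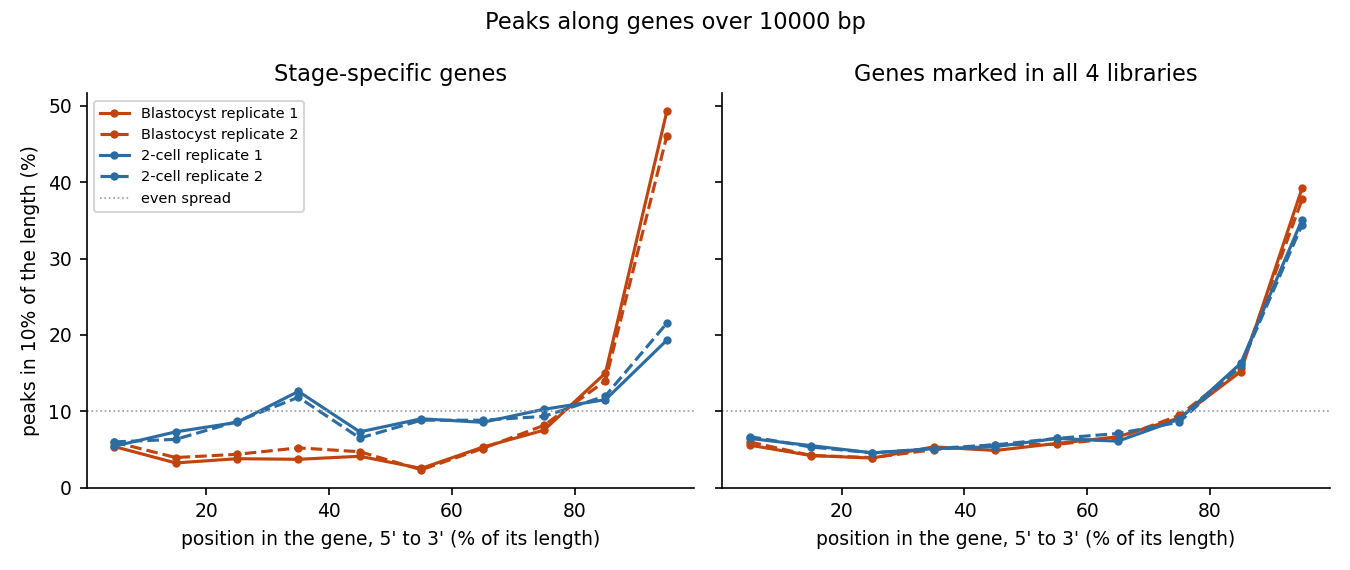
Lines give, for each 10% of the gene's length from 5′ to 3′ (x, % of gene length), the share of peaks with their midpoint there (y, %); orange is blastocyst, blue 2-cell, solid replicate 1 and dashed replicate 2, and the dotted line is an even spread. In the last 10% blastocyst-specific genes reach 49.2% and 46.0% and 2-cell-specific genes 19.3% and 21.5%. Genes marked in all 4 libraries reach 39.2% and 37.7% there in blastocysts and 35.1% and 34.4% in 2-cell embryos.

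Most genes marked at both stages shared the place of the mark. Of the 1775, 1454 held a region with peaks of all 4 libraries, and 78 (4.39%) had no base covered at both stages. The highest-ranked of the 78 by the mean percentile were Erc2, Lrba, Zyg11b, Cbx1, Qk and Zfp248. Qk, an RNA-binding protein of splicing, had its best peak 67615 and 67617 bp from the 3′ end in blastocysts and 2655 and 2650 bp from it in 2-cell embryos. Cbx1 (HP1 beta), a reader of methylated histone H3, showed the opposite, with 1579 and 1576 bp in blastocysts and 13275 and 13308 bp in 2-cell embryos. Tjp1 (ZO-1), a junction scaffold, had its best peaks 17076 and 17195 bp from the 3′ end in blastocysts and 184312 and 184304 bp from it in 2-cell embryos. It is not one of the 78, since its 3 and 3 blastocyst peaks and 2 and 2 peaks in 2-cell embryos share bases between the stages. Among the highest of the genes marked in all 4 were Pcbp1, Pabpn1 and Larp1, which bind RNA, and Map1lc3b (LC3B) of autophagy. Pcbp1 had its best peaks at percentiles 100.0 and 99.9 in blastocysts and 99.8 and 99.9 in 2-cell embryos, between 714 and 733 bp from its 3′ end in each library.

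Peaks outside protein-coding genes were spread unequally between the stages. Regions merged over the 4 libraries numbered 19875, of which 2073 were blastocyst-specific (10.4%), 3261 2-cell-specific (16.4%) and 1800 present in all 4 (9.06%). Crossed pairs gave 190, 476, 69 and 119 regions, that is 0.956%, 2.39%, 0.347% and 0.599%. Protein-coding genes held 1867 of the blastocyst-specific regions (90.1%) and 1206 of the 2-cell-specific ones (37.0%). Intergenic sequence held 110 (5.31%) in blastocysts and 1706 (52.3%) in 2-cell embryos. By library the intergenic share of peaks was 3.72% and 7.08% in blastocysts and 31.4% and 25.8% in 2-cell embryos, with means of 5.40% ± 2.37 and 28.6% ± 3.94 (SD, n = 2 each). Median folds of intergenic peaks were 6.18 and 6.79 in blastocysts and 7.07 and 6.76 in 2-cell embryos.

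The 1706 intergenic 2-cell regions fell into 2 kinds by their history. In all 6 oocyte and zygote libraries 710 (41.6%) were present, in none of the 6 another 895 (52.5%), and in 1 to 5 of them only 101. A region at chr6:78944166-78944473, 475292 bp from the nearest protein-coding gene Reg3g, belonged to the 710, with folds of 20.9 and 16.3. A region at chr6:89192230-89192768, 123545 bp from Plxna1, had folds of 14.7 and 26.4 and was present in 1 of the 6. It lay in the megabase with the most such regions, 15. Of the 110 intergenic blastocyst regions 1 was in all 6 and 94 were in none. The best-ranked of these, chrX:5114535-5115007, 160458 bp from Btbd35f27, had folds of 13.3 and 23.6 and was present in both 8-cell libraries.

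Non-coding and pseudogene annotations followed the intergenic pattern. Of 894 marked, 76 were blastocyst-specific (8.50%), 236 were 2-cell-specific (26.4%) and 79 were marked in all 4 (8.84%). Crossed pairs gave 6, 3, 9 and 4, that is 0.671%, 0.336%, 1.01% and 0.447%. Long non-coding RNA genes made up 24 of the blastocyst-specific and 122 of the 2-cell-specific set. Xist, the RNA that silences an X chromosome, led the blastocyst set with folds of 17.1 and 15.9 at percentiles 99.8 and 99.2, and had no 2-cell peak. Its antisense partner Tsix covers the same peaks, which carry no strand. Xist was marked in both 8-cell libraries and in no oocyte or zygote library. Eprn, with folds of 13.8 and 10.9, and the weaker Neat1, with folds of 6.26 and 3.14, shared that history. Obox3-ps4 had no peak in blastocysts and folds of 11.6 and 9.12 in 2-cell embryos. Malat1, a nuclear RNA with a known m6A site, was marked in all 4 at percentile 100.0 in both blastocyst libraries, against 93.0 and 97.4 in 2-cell embryos. These non-coding genes were picked after their values were seen.

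The other stages, which the rule did not use, showed when each class was marked. Of the 1214 blastocyst-specific genes 594 (48.9%) were marked in both 8-cell libraries and 358 (29.5%) in neither, against 115 (18.3%) and 412 (65.5%) of the 629 2-cell-specific genes. Over all 7579 marked genes 49.1% were marked in both 8-cell libraries and 34.6% in neither, so the blastocyst-specific genes lay near all marked genes and the 2-cell-specific genes below them. In all 6 oocyte and zygote libraries 149 (12.3%) of the blastocyst-specific genes were marked, against 266 (42.3%) of the 2-cell-specific genes and 25.9% of all marked genes. In no oocyte or zygote library 536 (44.2%) of the blastocyst-specific genes were marked, against 229 (36.4%) of the 2-cell-specific genes and 37.5% of all marked genes. Marks in none of the other 8 libraries were held by 187 blastocyst-specific genes (15.4%) and 129 2-cell-specific genes (20.5%), and by 17.2% of all marked genes. B3gnt5 and F2rl1, a protease-activated receptor, were among the 187, and Pld5 and Trmt11, a tRNA methyltransferase subunit, among the 129. They were chosen after their values were seen.

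**Figure D4:**
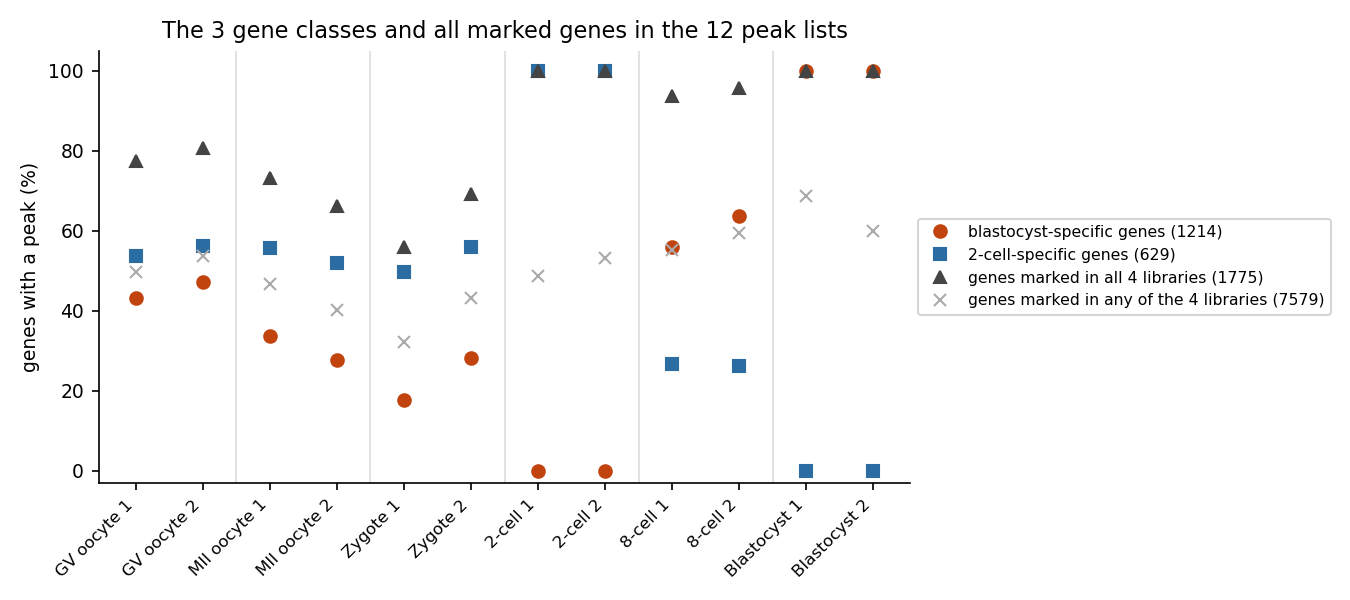
Points give the share of each gene class (y, %) that had a peak in each of the 12 libraries in developmental order (x); orange circles are blastocyst-specific genes, blue squares 2-cell-specific genes, dark triangles genes marked in all 4 libraries and grey crosses genes marked in any of them, and the values of 0 and 100 at the compared stages are set by the rule. At the 8-cell stage 55.8% and 63.6% of blastocyst-specific genes were marked, 26.7% and 26.1% of 2-cell-specific genes, and 55.1% and 59.5% of all 7579 marked genes.

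The specific counts depended on which peaks were allowed to mark a gene. With peaks within 2000 bp of a gene end alone, 746 genes were blastocyst-specific and 226 were 2-cell-specific. Among genes under 50000 bp the counts were 837 and 336.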

How the data were processed

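The 12 deposited files are peak lists, 1 per immunoprecipitated library. The 12 input libraries were not analysed here. The submitters' processing notes name MACS2 2.1.2, bedtools 2.28.0, SAMtools 1.9, HISAT2 2.1.0, deepTools 3.2.0, FastQC 0.11.8, cutadapt 1.8.1 and the build mm10. For settings, annotation and the control of each call, the sources used here give nothing. Per the deposited values, each peak has a score, a fold enrichment ratio, and −log10 p and q values, all made by the authors. In the 4 lists compared the score is 10 times the −log10 q, cut to a whole number. The lists give no read counts, so depth is unknown and no interval could be set. Lists were called separately per library, so a longer list can mark more genes.

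Several summits of 1 interval were collapsed to the one with the best q. Intervals on chromosomes 1 to 19, X and Y were kept, and 6 of the 4 lists lay elsewhere. Genes were the 21887 protein-coding bodies of RefSeq (GRCm38.p6, the same assembly as mm10). Strand was known for 79.9% of them, from the RefSeq promoter table, and exons were not used. Regions were merged where peaks shared at least 1 bp. Genes and lists were not tested: with 2 libraries a stage an exact permutation test on presence cannot reach significance. Counts were set beside the crossed splits, which are descriptions. For measures per library an exact two-sided permutation test was run, whose smallest p is 0.33. The scripts were tested on simulated lists with known classes. Analyses used Python 3.11.15, pandas 2.3.3 and NumPy 2.4.6.

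The genes named were the 12 highest of each specific class by mean percentile and up to 4 specific and 2 shared members per list. To these came the 6 highest shared genes with no base in common, the 5 highest shared genes and 4 intergenic regions per stage. Members, lists and rules were chosen with earlier results of these data known. Of 667 listed symbols 666 were found in the annotation. Alternatives changed the peak threshold, the overlap, the genes allowed or left out a library. Results for some of the named genes are not reported here.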

Additional observations from a re-analysis of the deposited data

How the results depend on the processing

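The stage differences in shares of peaks kept their direction under the alternatives run, and counts were compared only by size. No paired analysis was possible because the results are counts and shares from peak lists with no fitted test. With peaks at or above the median score of the 4 lists, 794 genes were blastocyst-specific, 836 were marked in all 4 and 27 of these shared no base. Regions under that score were 1173 blastocyst-specific, 1758 2-cell-specific and 837 in all 4. Keeping peaks whose fold reached their library's median, 534 genes were marked in all 4 and 32 shared no base. Regions under that fold were 1133 blastocyst-specific, 1841 2-cell-specific and 423 in all 4. The same setting gave a blastocyst minus 2-cell difference of -30.9 percentage points in intergenic peaks and 34.7 in peaks over protein-coding genes, and a Jaccard index between stages of 0.104. Peaks within 2000 bp of a gene end gave 746 blastocyst-specific, 226 2-cell-specific and 718 shared genes, and genes under 50000 bp gave 336 2-cell-specific ones. Single peaks that overlap reciprocally by 50% gave 908 regions in all 4. These settings use fewer peaks or genes by construction. Leaving out 1 library in turn loosens the rule for the specific classes of both stages. It gave 1462 to 2083 blastocyst-specific genes, 731 to 1078 2-cell-specific genes and 141 to 230 shared genes with no base in common. Regions then ranged over 2350 to 5072 for blastocysts and 3357 to 6024 for 2-cell embryos. Without a blastocyst library the order of the region counts reversed, with 4753 blastocyst-specific against 3791 2-cell-specific, and 5072 against 3357. Lists with more blastocyst-specific than 2-cell-specific members numbered 13 to 17 of 22, where all marked genes also held more of the blastocyst-specific class (1214 against 629). Of the 152 named genes, 126 kept their class at the median score, 150 with 7943 peaks from each library, 86 at the median fold and 72 within 2000 bp of a gene end. A change of sign was not possible for these genes, because the settings only remove peaks. Depth is unknown, so a gene without a peak cannot be told apart from one under the detection limit.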

Other observations

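A group of genes was marked in blastocysts and in all 6 oocyte and zygote libraries but in neither 2-cell library. It holds 149 of the 1214 blastocyst-specific genes (12.3%), and 84 of the 149 were marked in both 8-cell libraries as well. The 84 are 6.92% of the class. Of all 7579 marked genes 25.9% were marked in all 6 oocyte and zygote libraries, and 16.0% also in both 8-cell libraries. Both shares of the class lay below these. Gata3, Erf, an ETS-family repressor, and Tardbp (TDP-43), an RNA-binding protein of splicing, were the highest-ranked of the 149. Tardbp had folds of 7.30 and 9.81 in blastocysts, with both peaks 4941 to 4949 bp from the 3′ end. Ctbp2, a transcriptional corepressor, had folds of 19.01 and 11.51 within 958 to 1005 bp of its 3′ end. The reverse group, marked in 2-cell embryos and all 6 oocyte and zygote libraries but in neither blastocyst library, holds 266 of the 629 2-cell-specific genes. The 266 are 42.3% of that class. Of them 27, or 4.29% of the class, were marked in both 8-cell libraries as well. Usp29, Nell1 and Nexn were among these 27. The genes of both groups were chosen after their values were seen.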
